A study of Homo sapiens with 12 samples.

Results

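The genes described here write, read and erase DNA methylation: the writers DNMT1, DNMT3A and DNMT3B, the recruiter UHRF1, the erasers TET1, TET2 and TET3, and the reader-family protein MBD3. AC005943.2, an annotated feature on the strand opposite MBD3, is described with them. These 9 features were chosen by gene name among 59490 features whose name occurs once in the deposited tables. All 12 libraries come from OCI-LY1, a human line of diffuse large B-cell lymphoma (DLBCL), and hold polyadenylated RNA. Resistant cells (OCI-LY1R) had been selected in rising venetoclax, an inhibitor of the survival protein BCL2, up to 1 µM, and were then given 1 µM decitabine for 3 days (3 libraries) or DMSO vehicle (3 libraries). Parental cells, labelled without such selection, were given 1 µM decitabine for 3 days (3 libraries) or DMSO (3 libraries). Resistance is thus represented by 1 selected derivative of 1 line. The labels do not say that replicates were separate cultures, so a p-value here reflects spread among libraries that may be technical. Parental replicates are numbered as labelled. The columns of the resistant table are numbered too, but some share their names with titles of parental samples, so they were tied to groups by table and treatment and are called a, b and c in the order of their numbers.

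In mammals, DNMT3A and DNMT3B place methyl groups on unmethylated CG dinucleotides, and DNMT1 copies the pattern to the new strand after replication. UHRF1 recognises DNA methylated on a single strand and brings DNMT1 to it. TET enzymes oxidise methylated cytosine, which starts its removal, and MBD proteins read the mark, although mammalian MBD3 binds methylated DNA poorly and serves as a subunit of the chromatin remodelling complex NuRD. Decitabine is a cytidine analogue that is built into DNA, where it traps DNMT enzymes. That action is on the protein, and the values here are RNA levels.

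CG dinucleotides are where these enzymes act, so the start regions of the maintenance pair, DNMT1 and UHRF1, are shown with every CG in capitals. Both are RefSeq windows of 300 bases (GRCh38.p14), given 5′ to 3′ on the strand of the gene, that run from 250 bases before to 50 after a transcript start. The DNMT1 window is chr19:10194904-10195203 on the minus strand, and the first UHRF1 window is chr19:4909251-4909550 on the plus strand.
DNMT1: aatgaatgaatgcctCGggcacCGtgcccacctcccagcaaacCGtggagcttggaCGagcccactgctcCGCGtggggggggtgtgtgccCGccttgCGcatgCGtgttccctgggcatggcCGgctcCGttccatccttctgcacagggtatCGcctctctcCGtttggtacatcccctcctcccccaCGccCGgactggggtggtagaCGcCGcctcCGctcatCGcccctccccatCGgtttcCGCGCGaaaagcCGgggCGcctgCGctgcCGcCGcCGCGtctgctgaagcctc
UHRF1: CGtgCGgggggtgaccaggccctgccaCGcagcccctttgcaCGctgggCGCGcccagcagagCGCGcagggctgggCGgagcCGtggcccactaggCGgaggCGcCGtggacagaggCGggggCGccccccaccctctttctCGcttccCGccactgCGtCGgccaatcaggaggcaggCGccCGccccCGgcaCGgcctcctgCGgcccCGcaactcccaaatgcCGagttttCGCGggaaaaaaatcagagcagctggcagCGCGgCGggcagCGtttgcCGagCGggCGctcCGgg
The DNMT1 window holds 30 CG, and 22.4% of all 35116 RefSeq windows hold as many or more. This UHRF1 window holds 36, with 12.7% of windows at that number or above. The 8 coding genes have 19 windows in the table, since some have several starts. Of these, 14 lie above the median of 14 CG, as do 48.9% of all windows. Some windows of DNMT3A, of UHRF1 and of TET1 overlap others of the same gene. The 19 windows thus count some sequence more than once and are not separate promoters. The lowest is the only DNMT3B window, with 3 CG, and the highest, at 46, are a window of DNMT3A and another of UHRF1. The DNMT3B window starts at 32779602, inside the gene, whose annotated start is 32762385 on the plus strand. The sequence at that annotated start was not counted. The DNMT1 and UHRF1 windows shown likewise lie inside the annotated gene spans and not at their outer starts. CG was searched as C followed by G, which reads the same on both strands, and 96.0% of windows hold at least 1. These counts describe sequence alone, because DNA methylation itself was not analysed here.

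Values are TPM (transcripts per 1000000), an abundance corrected for feature length that sums to 1000000 in each library. The depth of the libraries is unknown, so no counting interval is given, and an exact 0 is written as listed at 0. The strand setting used in counting is not given either, so a listed level may not be that of the gene's own RNA. Parental decitabine replicate 3 stood apart from the other 11 libraries and is shown apart throughout. The summed TPM of 7 B-cell markers was 2951 in replicate 3, with none at 0, and between 30.0 and 191 in the other 11. Among 14068 protein-coding features above 0 in replicate 3, 77.0% exceeded each of the other 11 libraries there. The 7 markers of other cells summed to 34.9 TPM in replicate 3, of which EPCAM made 33.4, and to 0 to 23.7 TPM in the 11, where CD3E, CD3D, CD14 and COL1A1 were listed at 0.

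In replicate 3 all 8 coding genes were detected, and all 8 exceeded each of the other 11 libraries, against the 77.0% of protein-coding features. DNMT1 was listed at 221 TPM, above 97.1% of those 14068 features. MBD3 followed at 95.9 TPM and UHRF1 at 70.8 TPM. The remaining 5 genes were far lower, and all sat below the middle of the protein-coding range of that library. DNMT3B had 5.67 TPM, TET2 4.61, TET3 4.40, DNMT3A 2.50 and TET1 0.328 TPM. TET1 was the lowest, with 15.5% of the protein-coding features below it. Replicate 3 is 1 library, so this order has no replicate spread. AC005943.2 was listed at 0 there.

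In the other 11 libraries the order was different, as the plot of all libraries shows. AC005943.2 was the highest of the 9 features, with a median of 873 TPM. The 8 coding genes together summed to 405 TPM in replicate 3, against 1.81 to 26.4 TPM in these 11. MBD3 was the highest of the 8 wherever it was above 0, in 8 of the 11 libraries, UHRF1 and DNMT1 lay near 1 TPM, and TET2 stayed at or below 1.12 TPM. The ranges of UHRF1, DNMT1 and TET2 overlapped each other. DNMT3A was at most 0.219 TPM, and DNMT3B, TET1 and TET3 were listed at 0 throughout. Of the 88 values of the coding genes in the 11 libraries, 46 were listed at 0, or 52.3%. The same share over the 14068 protein-coding features was 59.3%. DNMT1, UHRF1 and DNMT3A in replicate 3 were at least 10 times their highest value elsewhere, and DNMT3B, TET1 and TET3 were above 0 there alone. That makes 6 of 8, against 53.4% of the protein-coding features under the same count.

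**Figure D1:**
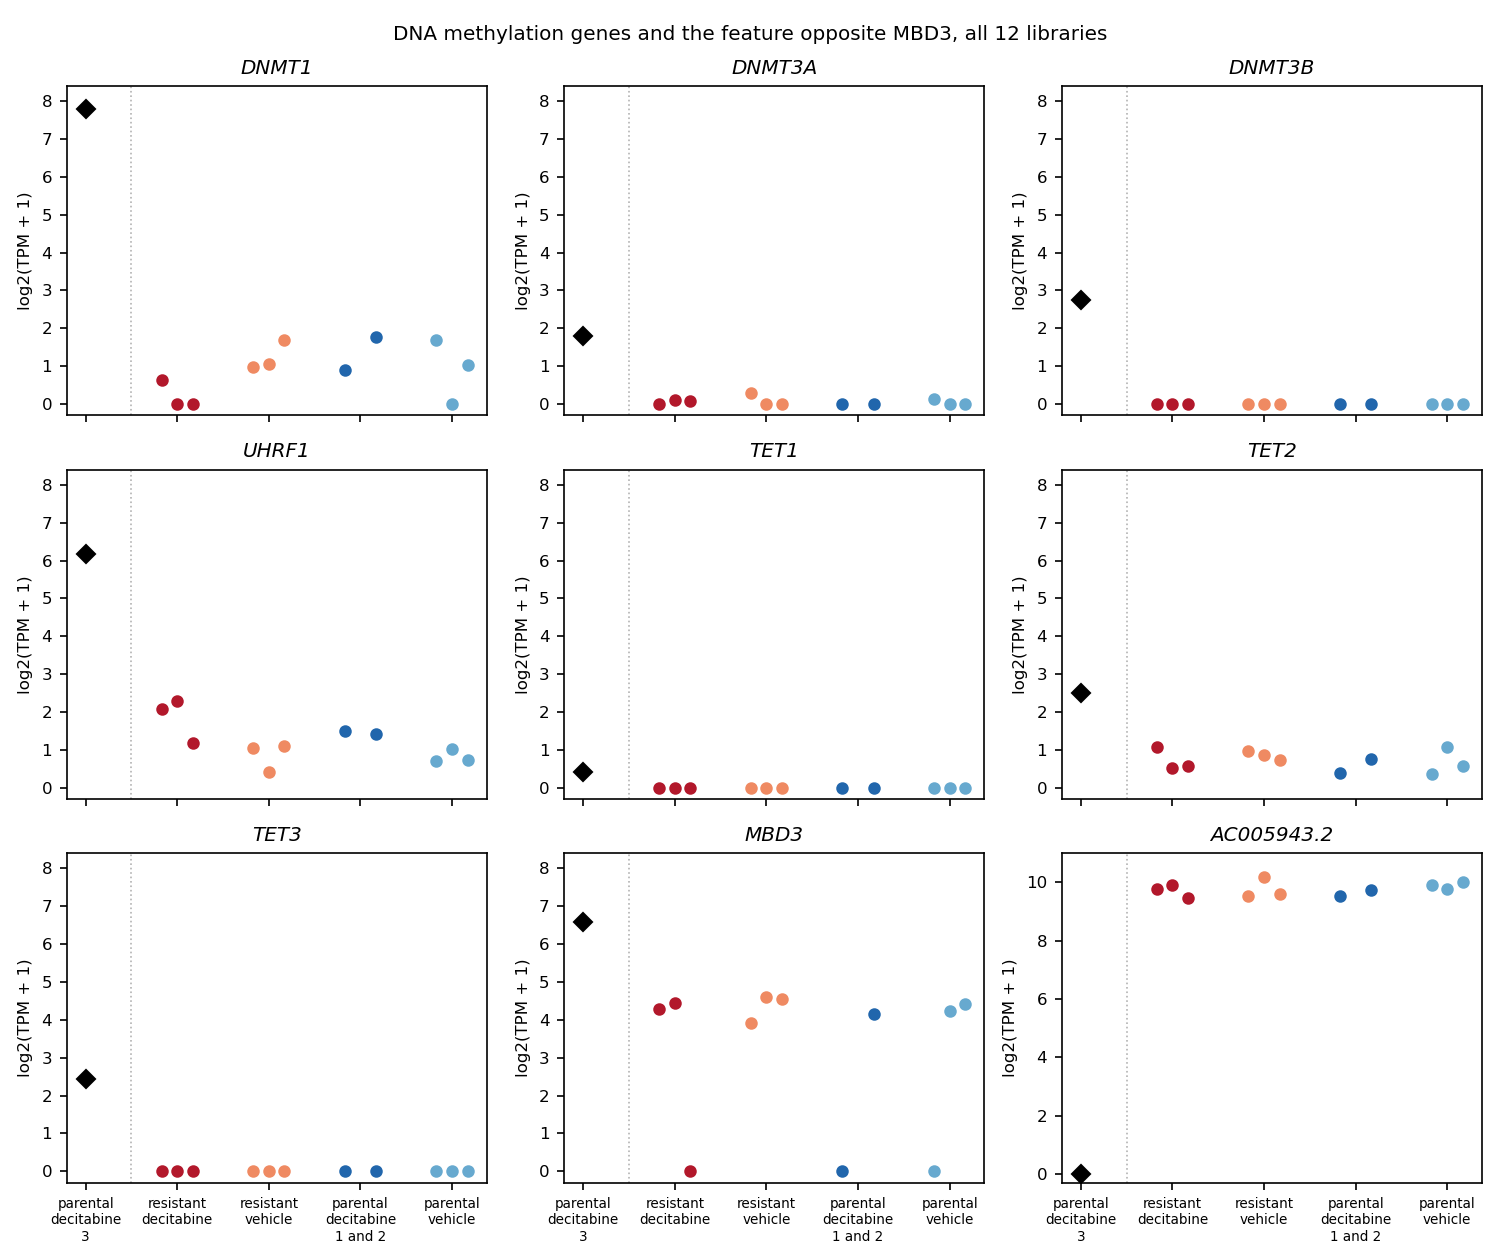
Level of each of the 9 features, as log2(TPM + 1), in parental decitabine replicate 3 (black diamond) and in the libraries of the 4 groups (coloured points). The 8 coding genes are highest in replicate 3, where AC005943.2 is listed at 0.

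DNMT1, the maintenance methyltransferase, spans chromosome 19 from 10133345 to 10231286 on the minus strand (GENCODE 29, GRCh38). Beside its 221 TPM in replicate 3, its levels were 0.550, 0 and 0 TPM in resistant decitabine libraries a to c, against 0.973, 1.07 and 2.23 TPM in resistant vehicle. In parental cells it had 0.875 and 2.40 TPM in decitabine replicates 1 and 2, against 2.23, 0 and 1.04 TPM in vehicle. Every resistant decitabine library was thus below every resistant vehicle library, with decitabine libraries b and c listed at 0. The same order was found for 8.58% of tested features, a set that does not hold DNMT1. The parental groups overlapped. The highest of the 11 values was 2.40 TPM, and replicate 3 was 91.8 times that.

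The de novo enzymes were close to or at 0 outside replicate 3. DNMT3A (chromosome 2, 25227855 to 25342590, minus strand) was at 0, 0.0676 and 0.0502 TPM in resistant decitabine and at 0.219, 0 and 0 TPM in resistant vehicle. In parental cells it was at 0 in decitabine replicates 1 and 2, and at 0.0872, 0 and 0 TPM in vehicle. With 7 of 11 libraries at 0, no order of the groups can be read. DNMT3B (chromosome 20, 32762385 to 32809356, plus strand) was listed at 0 in all 11, so no fold is given for its 5.67 TPM in replicate 3. Neither enzyme reached the mean of 1 TPM needed for a test in any comparison without replicate 3.

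UHRF1 (chromosome 19, 4903080 to 4962154, plus strand) was above 0 in all 12 libraries. It had 3.26, 3.92 and 1.26 TPM in resistant decitabine, against 1.06, 0.327 and 1.16 TPM in resistant vehicle. Parental decitabine replicates 1 and 2 had 1.83 and 1.68 TPM, against 0.623, 1.03 and 0.646 TPM in parental vehicle. Decitabine libraries were above vehicle libraries without overlap in both lines, as 9.45% of 8505 features were. Resistant decitabine averaged 2.81 ± 1.38 TPM and resistant vehicle 0.847 ± 0.452 TPM (SD, n = 3 each). Parental decitabine averaged 1.76 ± 0.104 TPM (SD, n = 2) and parental vehicle 0.768 ± 0.231 TPM (SD, n = 3). Its 70.8 TPM in replicate 3 were 18.1 times the highest of the other 11.

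Among the erasers, TET2 (chromosome 4, 105145875 to 105279816, plus strand) was above 0 in every library. It had 1.12, 0.435 and 0.50 TPM in resistant decitabine, against 0.942, 0.808 and 0.675 TPM in resistant vehicle. Parental decitabine replicates 1 and 2 had 0.304 and 0.686 TPM, against 0.282, 1.1 and 0.477 TPM in parental vehicle. The groups overlapped in both lines, and replicate 3 was 4.11 times the highest of the 11. TET1 (chromosome 10, 68560656 to 68694482, plus strand) and TET3 (chromosome 2, 73986404 to 74108176, plus strand) had 0.328 and 4.40 TPM in replicate 3, against 0 in all 11. No TET gene reached a mean of 1 TPM in a comparison without replicate 3.

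MBD3 (chromosome 19, 1573596 to 1592801, minus strand) switched between 0 and a narrow band. It had 18.6, 20.9 and 0 TPM in resistant decitabine, against 14.1, 23.1 and 22.3 TPM in resistant vehicle. Parental decitabine replicates 1 and 2 had 0 and 16.8 TPM, against 0, 17.9 and 20.6 TPM in parental vehicle. A single library at 0 stood in each of 3 groups, and the 8 values above 0 lay between 14.1 and 23.1 TPM. Replicate 3 was 4.14 times the highest of them, the second smallest such ratio of the 5 coding genes above 0 in at least 1 of the 11.

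AC005943.2 (chromosome 19, 1576939 to 1577086, plus strand) is a feature of 148 bases in the annotation class TEC, which marks transcripts that still await experimental support. All 148 bases lie opposite the last exon of MBD3 and inside the 3′ UTR of 4 of its transcripts. Its bases start 15715 and end 15862 bases along MBD3 from the MBD3 start, past the coding sequence. It was the only feature with an exon opposite an exon of one of the 8 genes. The libraries are labelled stranded, and the strand setting used in counting is not given in the sources used here. Reads of MBD3 and of AC005943.2 would be told apart by strand alone, so the levels of both are uncertain. The same setting bears on the levels and fits of the other coding genes, and its part in them was not tested.

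The levels of AC005943.2 were 885, 963 and 714 TPM in resistant decitabine, against 738, 1176 and 785 TPM in resistant vehicle. Parental decitabine replicates 1 and 2 had 737 and 864 TPM, against 967, 873 and 1036 TPM in parental vehicle. Resistant decitabine averaged 854 ± 128 TPM and resistant vehicle 900 ± 241 TPM (SD, n = 3 each), with overlap. Parental decitabine averaged 800.1 ± 89.9 TPM (SD, n = 2) and parental vehicle 958 ± 81.9 TPM (SD, n = 3), without overlap. Opposite it, MBD3 had at most 23.1 TPM in the same 11 libraries. In replicate 3 the pair was turned round, with 0 TPM for AC005943.2 and 95.9 TPM for MBD3.

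**Figure D2:**
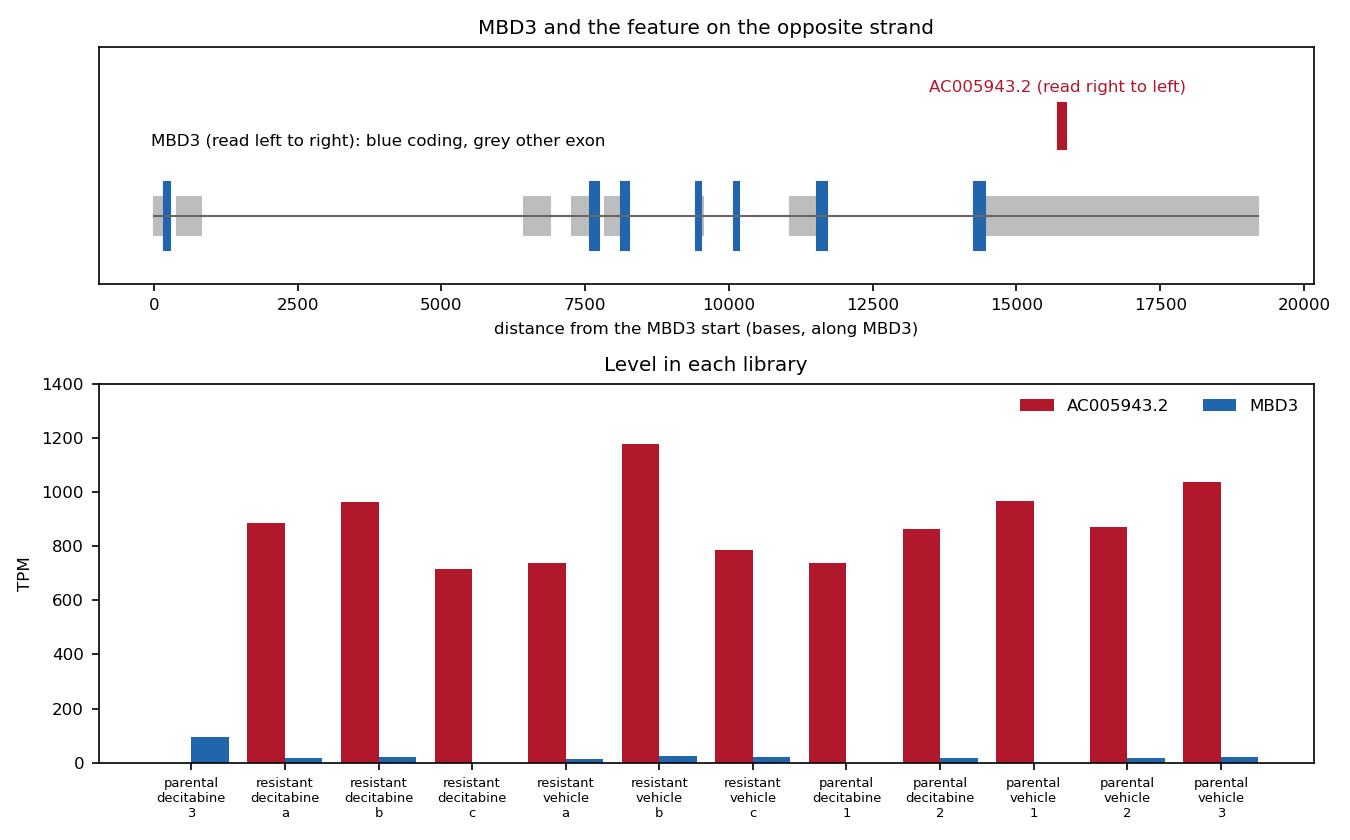
Top, exons of MBD3 (blue coding, grey other exon) and AC005943.2 (red) by distance in bases from the MBD3 start. Bottom, TPM of AC005943.2 (red bars) and MBD3 (blue bars) in each of the 12 libraries: the feature of 148 bases reads 714 to 1176 TPM in 11 libraries and 0 in parental decitabine replicate 3.

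For comparison, in the annotation, 362 features had at least 80% of their exon length opposite 1 coding gene and averaged 5 TPM or more in the 11 libraries. AC005943.2 was the 30th highest of them by that mean, at 885 TPM against a median of 87.9 TPM. It has 148 exon bases, against a median of 514.5 in the set, and TPM divides by length, so a short feature reads higher for the same reads. Of the 362, 230 were listed at 0 in replicate 3, or 63.5%. The mean of the 11 was above replicate 3 for 360 of the features. The set was chosen by that mean, with no condition on replicate 3, so both counts are in part built in. For the coding genes opposite the features, the mean of the 11 was below replicate 3 in 301 cases, or 83.1%. The same share over all coding genes was not computed. The log2 ratio of the feature in the 11 libraries to its opposite gene in replicate 3, with 1 TPM added to each, was 3.19 for AC005943.2, with a median of 2.30 and quartiles of 1.32 and 3.16 over the set.

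The effect of decitabine was tested in each line with limma on log2(TPM + 1). Features averaging 1 TPM or more across the libraries of a fit were tested. A feature was called at an adjusted p (Benjamini-Hochberg, over all tested features) under 0.05. Fold changes on this scale understate the change of low features. In resistant cells 3.59% of 8579 features were called, and none of the 3 features tested here (UHRF1, MBD3 and AC005943.2) was, nor had any of them an unadjusted p under 0.05, which 19.8% of features had. UHRF1 had the largest difference upward, with a log2 fold change of 1.00 ± 0.45 (SE), a 95% interval of -0.10 to 2.10 and an adjusted p of 0.281. It was higher in 3 of 3 decitabine libraries, as were 19.8% of features, and the median log2 fold change over all 8579 features was 0.21. Under quantile scaling that median was -0.03 and the UHRF1 value 0.44. B-cell markers summed to 126 to 191 TPM in resistant decitabine and 37.9 to 134 TPM in resistant vehicle. Markers of other cells, of which KRT8 reached 22.4 TPM, summed to 1.77 to 23.7 TPM and 0 to 2.98 TPM in the same groups. Their part in these differences was not tested.

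DNMT1 had a mean under 1 TPM in resistant cells and was not tested there. With no filter its log2 fold change was -1.03 ± 0.44 (SE), with an interval of -2.09 to 0.03 and an adjusted p of 0.515 by limma. All 3 decitabine libraries were below the vehicle libraries, as were 8.58% of tested features, a set of higher mean level that does not hold DNMT1. MBD3 had -1.44 ± 1.23 (SE) with an interval of -4.46 to 1.59, which rests on decitabine library c at 0, and without that library the value was 0.02. AC005943.2 had -0.05 ± 0.22 (SE), with an interval of -0.59 to 0.48.

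**Figure D3:**
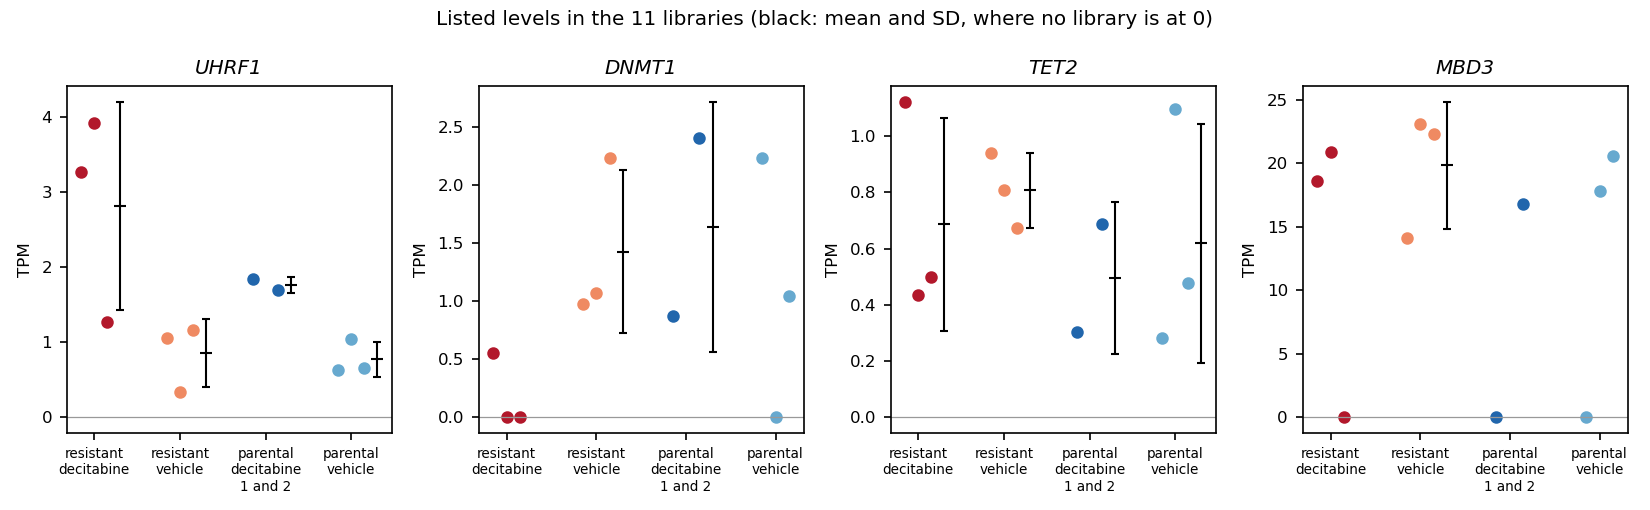
TPM of UHRF1, DNMT1, TET2 and MBD3 in each of the 11 libraries without parental decitabine replicate 3 (points), with the mean and SD in black where no library of the group is at 0. UHRF1 lies above vehicle in every decitabine library of its line, and MBD3 has a library at 0 in 3 of the 4 groups.

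In parental cells, with replicate 3 left out, 1.86% of 8122 features were called and none of the 4 tested here. On the deposited scale none had an unadjusted p under 0.05, which 18.0% of features had. UHRF1 again had the highest value, 0.65 ± 0.33 (SE) with an interval of -0.21 to 1.51 and an adjusted p of 0.374 by limma. Both decitabine libraries were above vehicle, as for 27.9% of features. The median over all features was 0.21. DNMT1 had 0.43 ± 0.65 (SE) with an interval of -1.29 to 2.15, and MBD3 had -0.81 ± 1.97 (SE). AC005943.2 had -0.26 ± 0.12 (SE) with an interval of -0.58 to 0.05 and an adjusted p of 0.338. Both its decitabine values were below all vehicle values, as for 11.6% of features. Its value was -0.45 under median-ratio scaling, with an adjusted p of 0.121 by limma, and -0.15 without decitabine 1, and its adjusted p ranged from 0.121 to 0.605 over the alternatives. Under median-ratio and quantile scaling its unadjusted p was under 0.05. B-cell markers summed to 30.0 to 46.3 TPM in decitabine replicates 1 and 2 and 55.9 to 150.2 TPM in vehicle, without overlap. Markers of other cells summed to 0.530 to 0.682 TPM and 0 to 0.561 TPM in the same groups, and their part, like that of the B-cell markers, was not tested. The levels of replicate 3 itself have no vehicle library with like values beside them, so a decitabine response of these genes at such levels was not tested.

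A fit over the 11 libraries with the line as a term, added after the values were seen, gave 881 calls among 8505 features, or 10.4%. None of the 4 tested features was called. UHRF1 came nearest, with a log2 fold change of 0.85 ± 0.27 (SE), an interval of 0.24 to 1.45, an unadjusted p of 0.0107 by limma and an adjusted p of 0.0771. An unadjusted p under 0.05 was found for 26.2% of features. Its level was higher in 5 of 5 decitabine libraries than in every vehicle library of the same line. Over the alternatives the value ranged from 0.38 to 1.61 and the adjusted p from 0.0549 to 0.581. DNMT1 had -0.38 ± 0.42 (SE), MBD3 -1.16 ± 1.14 (SE) and AC005943.2 -0.15 ± 0.14 (SE), with adjusted p of 0.604, 0.561 and 0.546 by limma.

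Resistant cells were set against parental cells under each treatment, with TPM scaled within each library and both tables listing the same features. The lines stand in separate tables, so the line and the table cannot be told apart. Under vehicle 2.8% of 7761 features were called and none of the 3 tested here, none of which had an unadjusted p under 0.05 (19.3% of features). DNMT1 had a log2 fold change of 0.33 ± 0.54 (SE, interval -1.0 to 1.67), MBD3 1.46 ± 1.23 (SE, interval -1.58 to 4.50) and AC005943.2 -0.12 ± 0.20 (SE, interval -0.61 to 0.37). UHRF1 had a mean under 1 TPM there and, with no filter, a value of 0.04 with an interval of -0.93 to 1.0. Every one of these groups overlapped. Under decitabine, without parental replicate 3, 0.831% of 9029 features were called and none of the 3 tested here, none of which had an unadjusted p under 0.05 (12.1% of features). UHRF1 had 0.39 ± 0.48 (SE, interval -0.84 to 1.62) with overlap. DNMT1, under the filter and not tested there, was lower in each resistant library than in the parental libraries without overlap. The same held for 12.4% of the tested features, which do not include DNMT1. With no filter DNMT1 had an interval of -2.39 to 0.14 and an adjusted p of 0.717 by limma.

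The difference between the responses of the lines was tested in a model of 4 group means, in which 0.364% of 8505 features were called and none of the 4 tested here; none had an unadjusted p under 0.05 (10.1% of features). DNMT1 had the value farthest from 0, -1.46 ± 0.73 (SE), with an interval of -3.11 to 0.19 and an adjusted p of 0.538 by limma. UHRF1 had 0.35 ± 0.55 (SE, interval -0.89 to 1.59). The interval of UHRF1 holds 0 as well as a difference larger than either line's own value, so the responses are not shown to be alike.

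**Figure D4:**
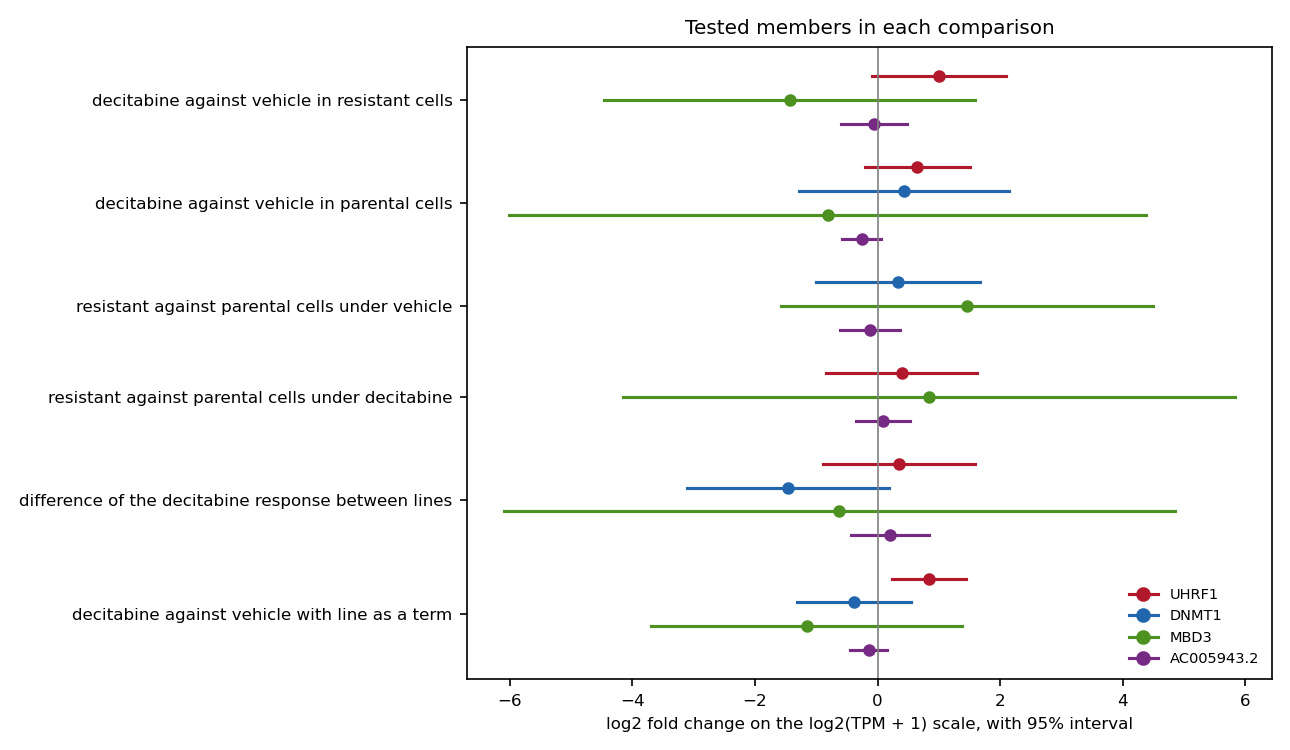
Log2 fold change on the log2(TPM + 1) scale (point) with its 95% interval (line) for each tested feature of the 9 in the 6 comparisons. Of these intervals, that of UHRF1 with the line as a term (0.24 to 1.45) is the one that does not cross 0.

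The wider pathway was described with a list of 51 other genes. In replicate 3 their median was 34.8 TPM and their range 0 to 339 TPM, and 48 of the 51, or of the 49 above 0 there, exceeded each of the other 11 libraries, against the 77.0% of protein-coding features. The partners of maintenance were led by PCNA, the replication clamp, at 292 TPM, followed by USP7, which stabilises DNMT1 and UHRF1, at 81.1 TPM. CDCA7, which recruits the remodeller HELLS, had 77.9 TPM and HELLS itself 11.6 TPM. Among readers MBD1 had 96.9 TPM and MBD6 79.7 TPM. In removal and repair, the nuclease APEX1 had 224 TPM and the glycosylase TDG 11.8 TPM.

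NuRD, the complex of MBD3, had the highest median of the 7 roles, 110.1 TPM over 11 subunits. MTA1 had 305 TPM in replicate 3 and 18.6 to 26.8 TPM in the other 11, and the deacetylase HDAC1 had 272 TPM in replicate 3. Genes of the methyl donor cycle had a median of 83.4 TPM, with SHMT2, which feeds carbon units to the cycle, at 339 TPM and AHCY, which clears the spent donor, at 155 TPM. IDH2, a source of the cofactor of TET enzymes, had 108 TPM. The exceptions to the pattern were LIG1, the replication ligase, with 68.4 TPM in replicate 3 and up to 76.4 TPM elsewhere, DNMT3L, the cofactor of de novo methylation, at 0 in replicate 3 and up to 13.3 TPM elsewhere, and GADD45G at 0 in every library. In the 11 libraries 34 of the 51 had a mean under 1 TPM, and genes listed at 0 in all of them included PCLAF, MBD4, GADD45G, APOBEC3B and MTR.

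**Figure D5:**
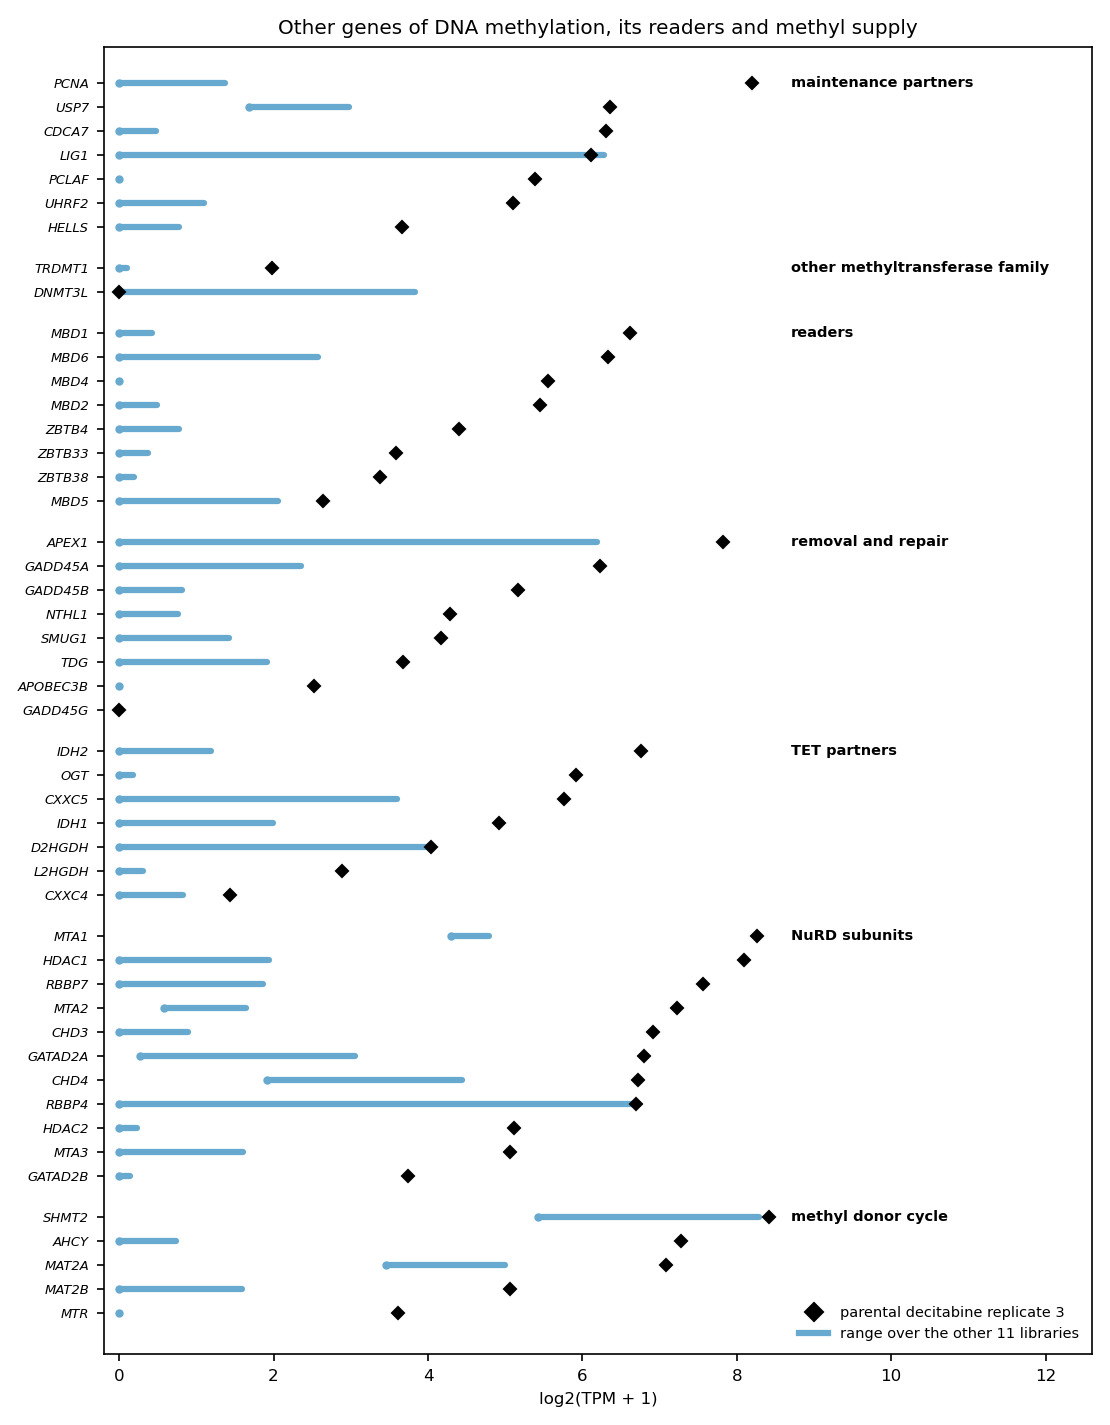
Level, as log2(TPM + 1), of 48 of the 51 other genes of DNA methylation by role, in parental decitabine replicate 3 (black diamonds) and as the range over the other 11 libraries (blue lines, a dot where the range starts or is 0). The diamond lies right of the range for 45 of the genes drawn, and LIG1, DNMT3L and GADD45G are the exceptions.

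With the 9 features added, the list held 60 members, of which 19 to 22 passed the filter in a comparison. None was called in the 5 separate comparisons by limma, in which 3.59%, 1.86%, 2.8%, 0.831% and 0.364% of all features were called. An unadjusted p under 0.05 was found for 1 of 21 tested members for decitabine in resistant cells, against 19.8% of all features, and for 1 of 21 in parental cells, against 18.0%. Between the lines it was found for 1 of 19 under vehicle, against 19.3%, and 0 of 22 under decitabine, against 12.1%. For the difference between responses it was found for 2 of 21, against 10.1%. The list's median log2 fold change was 0.35 for decitabine in resistant cells, beside 0.21 over all features, and 0.04 in parental cells, beside 0.21. Between resistant and parental cells it was -0.13 under vehicle, beside 0.11 over all features, and 0.04 under decitabine, beside 0.10.

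With the line as a term 1 of 21 tested genes was called, against 10.4% of all features. This was MAT2A (chromosome 2, 85539165 to 85545280, plus strand), which makes the methyl donor S-adenosylmethionine. It had 23.9, 28.2 and 31.1 TPM in resistant decitabine, against 20.6, 16.5 and 23.0 TPM in resistant vehicle. Parental decitabine replicates 1 and 2 had 30.7 and 22.9 TPM, against 11.03, 9.96 and 12.1 TPM in parental vehicle. Decitabine libraries were above vehicle in both lines without overlap, as for 9.45% of 8505 features. The log2 fold change was 0.79 ± 0.19 (SE) with an interval of 0.37 to 1.20 and an adjusted p of 0.0261 by limma. The call depended on single libraries: it was lost on leaving out any of 6 of the 11 and under 4 other settings, with adjusted p up to 0.480. Taken alone, the parental difference was 1.20 ± 0.21 (SE) with an adjusted p of 0.0813 and the resistant one 0.45 with an adjusted p of 0.282, by limma.

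Likeness to each of the 4 features averaging 1 TPM or more was measured over the 11 libraries as the root mean square difference of log2(TPM + 1), each centred on its own mean, among features whose mean lay within 2-fold. Nearest to UHRF1 were PEX11G, a peroxisome protein, at 0.21, ANKLE2 at 0.22 and DIDO1 at 0.24, of 2423 candidates. Nearest to DNMT1 were the pseudogene EEF1A1P14, whose level is uncertain because near-identical copies exist, at 0.28, ARF1 at 0.40 and the nucleolar protein gene NPM1 at 0.42. MBD3 had no close match, the nearest being UCK2 at 1.07. For AC005943.2 the nearest 3 of 94 candidates included TLE5 at 0.15 and TAF6 at 0.16. These are descriptions over 11 libraries that share tables and scaling.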

How the data were processed

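RNA of 12 libraries of 4 groups was measured, stranded and polyadenylated per the labels' protocols. HISAT2, StringTie and DESeq2 were used with hg38, per the submitters' processing notes, and no versions are stated. Annotation release and strand setting: not given in the sources used here. Each line has a deposited table of 60656 features. These tables have no unit in the header and were taken as TPM computed by the authors, since each library sums to 1000000. TPM keep no depth. Gene names were used, because 4 of 9 identifiers in the parental table belong to the name beside them, and 1166 features with repeated names were left out. Parental columns were assigned to samples through their titles, and resistant columns, whose names carry numbers but match parental titles in part, to groups.

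The members and lists were chosen with earlier results of these data known, including the decision to leave out parental decitabine replicate 3 from the fits. limma 3.58.1 (trend) in R 4.3.3 was fitted to log2(TPM + 1) for all features averaging 1 TPM or more. Every member is named, every listed gene called in a fit (up to 6 per fit), features opposite members with a mean of at least 1 TPM, and the 3 features most alike to each member tested over the 11 libraries. Genes named for their level in replicate 3 were chosen after their values were seen. The results of a few genes that this rule or the list would name are not reported here. Positions come from GENCODE 29 (GRCh38) and promoter windows from RefSeq (GRCh38.p14). The test was tried on simulated data. Alternatives were a pseudocount of 0.1, no filter, an average of 5 TPM or more, quantile and median-ratio scaling, a model of 4 group means, replicate 3 included, a replicate block and leaving out each library. Features opposite the members were also counted at an overlap of 50% or more of the exon length. The fit with the line as a term was added after the values were seen.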

Additional observations from a re-analysis of the deposited data

Results flagged for a closer look

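Parental decitabine replicate 3, left out of the reported fits and included in an alternative alone, held the 8 coding genes above the level of all 3 parental vehicle libraries. DNMT1 was at 221 TPM there, MBD3 at 95.9 TPM and UHRF1 at 70.8 TPM. DNMT3B was at 5.67 TPM, TET2 at 4.61 TPM and TET3 at 4.40 TPM. DNMT3A was at 2.50 TPM and TET1 at 0.328 TPM. Of the 51 other listed genes, 49 were above every parental vehicle library in replicate 3, DNMT3L and GADD45G being the exceptions. Of the 14068 protein-coding features above 0 in replicate 3, 85.8% were above every parental vehicle library there. Replicate 3 is a single library, and what sets it apart from the other 11 was not tested.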

How the results depend on the processing

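Of 286 recomputed values of UHRF1, DNMT1, MBD3 and AC005943.2, 265 kept their direction and none was called, the lowest adjusted p by limma being 0.0549. Besides UHRF1 with the line as a term, an unadjusted p under 0.05 was reached by UHRF1 in resistant cells under 4 group means and without decitabine c, by AC005943.2 in parental cells under both scalings, and by AC005943.2 between the lines under vehicle without resistant vehicle b. The 21 reversals were all of uncalled values, and their cause was not tested beyond the library or setting named. On leaving out a library, MBD3 for decitabine in resistant cells ranged from -2.203 to 0.023 (above 0 without resistant decitabine c) and AC005943.2 from -0.181 to 0.155 (above 0 without resistant vehicle b or resistant decitabine c). In parental cells DNMT1 ranged from -0.025 to 0.859 (below 0 without vehicle 2 or decitabine 2) and MBD3 from -2.889 to 1.265 (above 0 without decitabine 1). Between the lines under vehicle DNMT1 ranged from -0.12 to 0.726 (below 0 without parental vehicle 2) and AC005943.2 from -0.329 to 0.008 (above 0 without resistant vehicle a). Under decitabine MBD3 ranged from -1.239 to 2.915 (below 0 without parental decitabine 1) and AC005943.2 from -0.027 to 0.212 (below 0 without parental decitabine 1 or resistant decitabine b). The MBD3 difference between responses ranged from -2.7 to 1.454 (above 0 without parental vehicle 1, parental decitabine 2 or resistant decitabine c). AC005943.2 was 0.024 in resistant cells under quantile scaling and -0.01 between the lines under decitabine with median-ratio scaling. With replicate 3 included, MBD3 was 0.695 in parental cells and -0.669 between the lines under decitabine, UHRF1 was -1.175 between the lines and -1.214 for the difference between responses, and DNMT1 was 0.775 with the line as a term.

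Counts of called features moved more. For decitabine in resistant cells (308) they were 73 with no filter, 194 at a mean of 5 TPM, 189 under quantile scaling, 661 in the model of 4 group means and 90 to 197 on leaving out a library. In parental cells (151) they were 35 with no filter, 14 to 264 on leaving out a library and 0 with replicate 3 included, where limma gave 262 features an unadjusted p under 0.05. Resistant against parental cells under vehicle (217) gave 68, 423 and 58 to 191 with no filter, 4 group means and a library left out. Under decitabine (75) the same settings gave 21, 155 and 0 to 17, and replicate 3 included gave 0, with 285 at an unadjusted p under 0.05 by limma; the 0 on leaving out a library was without parental decitabine 2, with 1060. The difference between responses (31) gave 7 with no filter, 1 with replicate 3 included and 12 to 47 on leaving out a library. The fit with the line as a term (881) gave 475, 25 and 573 to 730 under those settings. The share of higher calls fell under median-ratio scaling to 64.0% in resistant cells, against 78.9%, to 46.4% between lines under vehicle, against 61.8%, and to 55.5% with the line as a term, against 76.5%.

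With a replicate block in the parental fit, 0 features were called, and 978 had an unadjusted p under 0.05 by limma. Same-numbered parental libraries did not deviate together (r = -0.01 across 8122 features). That check used replicates 1 and 2 alone, so it cannot exclude a shared culture or batch. A replicate block by the number in the column name, added after the values were seen, gave 2 calls for decitabine in resistant cells and 4 between the lines under vehicle, and called none of the 9 features. The correlations of same-numbered libraries were -0.00601, 0.0311 and 0.0357 in resistant cells and -0.00034, 0.0182 and 0.0369 between the lines, and 3 and 4 of 6 libraries correlated best with their own number.

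MAT2A with the line as a term had an adjusted p of 0.0678 with no filter, 0.0597 and 0.0504 under quantile and median-ratio scaling, 0.480 with replicate 3 included, and 0.0501 to 0.0640 without parental vehicle 1 or 2, parental decitabine 1 or 2, resistant vehicle b or resistant decitabine c. Listed genes called in another setting included RBBP4 (parental cells without vehicle 3), LIG1 (without decitabine 2), MAT2A (4 group means) and SHMT2 (line as a term, without parental decitabine 1). The depth of the libraries is unknown, and values near 1 TPM cannot be given a counting error.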

Other observations

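MIR4322, an annotated microRNA of 73 bases on chromosome 19 (10230413 to 10230485, plus strand), lies opposite an intron of DNMT1 and overlaps none of its exons. It falls inside the annotated DNMT1 span, which reaches 10231286, but upstream of the DNMT1 start window shown above (10194904 to 10195203, minus strand). TPM divides by length, so a feature this short reads higher for the same reads. MIR4322 was named after its values were seen. It was listed at 1.53 TPM in parental decitabine replicate 3. In the other libraries it had 77.8, 30.7 and 108 TPM in resistant decitabine, against 44.2, 25.6 and 39.8 TPM in resistant vehicle. Parental decitabine replicates 1 and 2 had 15.8 and 29.9 TPM, against 55.6, 37.2 and 33.7 TPM in parental vehicle. The resistant groups overlapped. Both parental decitabine values were below all vehicle values, as for 11.6% of 8122 features. TET2-AS1 and AC110801.1, opposite introns of TET2 and TET3, were listed at 0 in all 12 libraries.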
